A study of Mus musculus with 7 samples.

Results

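The cells described here are neutrophils of NSCG tumours, a mouse glioblastoma model. They were chosen by raw counts of unique molecular identifiers (UMIs, 1 per captured RNA molecule) in single-cell libraries. A barcode counted as a kept cell when it had 500 UMIs or more from 300 genes or more and its mitochondrial share did not exceed 15%. It was called a neutrophil with at least 10 UMIs of S100a8 and S100a9 together and at least 2 UMIs of Csf3r, Cxcr2 and Retnlg together. It could hold at most 1 UMI of C1qa, C1qb and C1qc together, and none of Cd3d, Cd3e or Cd3g. This gave 50 neutrophils among 57893 kept cells, or 0.0864%.

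The tumours were grown from NSCG-mCherry cells, a line labelled EGFRvIII+ and Arf/Ink4a-/-, in the brains of C57BL/6 mice that were 7 to 10 weeks old and labelled wild type. Every group shares this line and host, and the sex of the mice is not given. Whole tumours were collected at about day 14, tumours of at least 2 mice were pooled for each library, and the suspension was digested with enzymes and freed of red cells before 10x capture. A library is therefore 1 replicate, and its cells are not.

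The 7 libraries fall into 5 groups. UT mice (1 library) were untreated. IgG mice (2 libraries) received an IgG2b isotype control at 10 mg/kg. In the experiment with the inhibitor, the isotype group also received the gavage diluent, and the labels do not say which IgG library that was. BP mice (2 libraries) received 5 mg/kg of B20, which blocks VEGF, with 10 mg/kg of an antibody to PD-L1. These injections were given every 3 days into the peritoneum from day 6 or 7. BPI mice (1 library) received BP and, by daily gavage, 10 mg/kg IPI-145, which inhibits the delta and gamma forms of PI3K. CD40 mice (1 library) received 100 µg of an agonist antibody against CD40 every 5 days, 2 doses in all. The labels leave it unsaid whether a dendritic cell vaccine was given with it.

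Neutrophils are short-lived granulocytes made in the bone marrow under the cytokine G-CSF, whose receptor is Csf3r. They leave the marrow and reach inflamed tissue along gradients of chemokines such as Cxcl2, read by the receptor Cxcr2. Their granule proteins are made in waves as they mature: azurophil proteins in promyelocytes and specific granule proteins later. S100a8 and S100a9, which are not granule proteins, are made in very large amounts. In tumours they are known both for inflammatory output, such as interleukin 1 beta, and for proteins that restrain T cells. They hold little RNA, so single-cell protocols recover few of them.

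Depth was high for a library as a whole, with 68997476 to 186793886 UMIs per library. The neutrophils themselves were shallow. Of the 50, 48 held between 788 and 2605 UMIs, with a median of 1619.5, against library medians of 6438 to 17400 UMIs over all kept cells. No neutrophil barcode occurred among the neutrophils of another library, and 0 to 28 kept barcodes were shared by any pair of libraries. Scrublet, a caller of doublets run on each library, marked 0 of the 50. The remaining 2 neutrophils stood apart in depth. One, in BP 1, held 14178 UMIs, with 11 of S100a8 and 0 of S100a9. The other, in BP 2, held 12112 UMIs and 4039 genes, with 57 UMIs of S100a8 and S100a9. Other markers of these 2 cells went against the name. The BP 1 cell held 173 UMIs of the monocyte markers, among them 39 of Fn1, 22 of Ly6c2 and 10 of Csf1r. It also held 120 of Lyz2, 158 of Chil3 and 193 of Cd74, the class II invariant chain. The BP 2 cell held 49 UMIs of the cell-cycle genes, with 9 of Stmn1 and 5 of Top2a. The rule counts both, so they are in the shares, which are also given without them. Alone they made up 28.1% of all neutrophil UMIs of BP 1 and 54.99% of those of BP 2. Levels below are therefore UMIs per 10000 summed over the other 48 cells, a choice made after the values were seen. Including the deep cell lowers many BP 2 levels by over 1.5 times, for example Il1b from 133.1 to 66.7, Cxcl2 from 54.5 to 27.2, Wfdc17 from 52.5 to 25.9 and Isg15 from 59.5 to 27.2. Others rise in BP 2, such as the cell-cycle genes from 0.151% to 0.291% of UMIs. The BP 1 levels of Il1b, Wfdc17 and Isg15 move less, to 90.9, 20.2 and 16.8. Intervals in the text are 95% intervals for counting error only (exact binomial for shares, exact Poisson for levels).

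Summed over the 48 cells, the marker genes fitted the name, and most markers of other cells were low. S100a9 (chromosome 3, 90692632 to 90695721, GRCm38) was at 606.22 UMIs per 10000 over the 48 cells and at 0.25 in the other leukocytes, taken as kept cells with a Ptprc UMI. These values chose the cells and are a description. Genes that the choice did not use were also present. Il1r2, a decoy receptor for interleukin 1, was at 12.67 UMIs per 10000 and at 0.12 in other leukocytes. Hdc, the enzyme that makes histamine, was at 28.13 against 0.18, and Stfa2l1, a stefin of neutrophils, at 20.53 against 0.00374. Trem1, a receptor that amplifies inflammatory signals, was at 8.87 against 0.12, and Mmp9, a gelatinase stored in granules, at 4.94 against 0.03. Of 25 listed neutrophil genes beyond the rule, 25 had a UMI, and together they took 3.18% of UMIs against 0.115% in other leukocytes. Of the 48 cells, 40 came from BP and BPI, so these levels mostly describe those libraries. The single UT cell held 0 UMIs of Il1r2, Hdc, Stfa2l1 and Mmp9, and 2 of the monocyte marker Csf1r. In that cell 13 of the 25 genes had a UMI, and they took 2.89% of its UMIs. Over all 32285 genes, 7214 had a UMI in the 48 cells. The 35 interferon genes described below were also all seen, so such a count alone does not mark identity. Ly6g, the surface protein used to sort mouse neutrophils, gave only 3 UMIs in the 48 cells.

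Most markers of other cell types were at or near 0 over the 48 cells, with exceptions in single cells and for Ly6c2. The 6 B-cell and plasma cell markers and the 5 red cell markers gave 0 UMIs, and the 9 T and NK markers gave 1 UMI. The 9 monocyte markers made up 0.0811% of UMIs, with a range over libraries from 0 in IgG 2 to 0.361% in the single UT cell. Ccr2, which defines inflammatory monocytes, was at 0. Ly6c2, a second such marker, was at 3.04 UMIs per 10000, against 6.25 in other leukocytes. Ly6c2 was seen in 11 of the 48 cells: 4 of 19 in BP 1, 1 of 7 in BP 2 and 6 of 14 in BPI. The pooled level therefore does not show that Ly6c2 was low in BPI. A monocyte gate of 1653 cells served as a reference (at least 2 Ly6c2 UMIs, at least 1 of Csf1r or Ccr2, at most 9 of S100a8 and S100a9), so its own level of Ly6c2 was set by that choice. Lyz2, the lysozyme of myeloid cells, was at 8.24 against 44.98 in the gate, and Cybb, the catalytic subunit of the oxidase, gave 1 UMI in the 48 cells against 8.52 per 10000. Neither gene is among the 9 monocyte markers. Cybb is also on the list of specific granule and immature neutrophil genes, so its near absence does not speak for the name. With the 2 deep cells, the monocyte markers were at 0.227%. The 11 macrophage and microglia markers made up 0.0494% of UMIs, from 0 in IgG 2 to 0.274% in the 2 IgG 1 cells, where free RNA was at 0.106% and 5 of the 6 UMIs were P2ry12, a microglial receptor, in 1 cell. The 13 tumour and glia markers made up 0.0406%, from 0 in UT and IgG 1 to 0.134% (3 UMIs) in the IgG 2 cell, where free RNA was at 0.0910%. The part of these markers in the results on IgG cells was not tested.

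Neutrophils were found more often in the tumours given VEGF and PD-L1 blockade, with or without the PI3K inhibitor, than in the isotype tumours. Of the 50 cells, 42 came from the BP and BPI libraries. UT held 1 neutrophil among 6859 kept cells, a share of 0.0146% (0.000369 to 0.0812). IgG 1 held 2 of 7658, or 0.0261% (0.00316 to 0.0943), and IgG 2 held 1 of 8341, or 0.0120% (0.000304 to 0.0668). BP 1 held 20 of 11337, or 0.176% (0.108 to 0.272), and BP 2 held 8 of 6999, or 0.114% (0.0494 to 0.225). BPI held 14 of 7880, or 0.178% (0.0972 to 0.298), and CD40 held 4 of 8819, or 0.0454% (0.0124 to 0.116). Both BP libraries lay above both IgG libraries, BPI lay at the level of BP 1, and CD40 lay between the groups, with an interval that overlaps those of the other 6 libraries.

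The BP mean was 0.145% ± 0.0439 (SD, n = 2) and the IgG mean 0.0191% ± 0.00999 (SD, n = 2), a difference of 0.126 percentage points and a ratio of 7.63. The two-sided exact permutation test of these shares gave p = 0.33, the smallest p that 2 libraries against 2 allow, so the design cannot reach a threshold of 0.05. Without the 2 deep cells the BP mean was 0.134%, with the same p. BPI, CD40 and UT are 1 library each and were not tested.

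The excess in BP was smaller when neutrophils were counted among leukocytes. Leukocytes, as kept cells with a Ptprc UMI or called neutrophil, made up 18.4% of kept cells in UT, 4.39% in IgG 1, 10.0% in IgG 2, 46.2% in BP 1, 12.0% in BP 2, 25.1% in BPI and 16.0% in CD40. Neutrophils were 0.0791% of them in UT, 0.595% in IgG 1, 0.119% in IgG 2, 0.382% in BP 1, 0.951% in BP 2, 0.708% in BPI and 0.284% in CD40. On this denominator IgG 1 lay above BP 1, so the groups overlapped. A Ptprc UMI was asked of other leukocytes but not of neutrophils. Of the neutrophils, 18 of 20 in BP 1, 7 of 8 in BP 2 and 8 of 14 in BPI had one, as did all in the other libraries. The BPI share in particular depends on this, and shares with the same demand on both were not computed. The highest shares were in IgG 1, BP 2 and BPI, which carry consecutive library names. Other leukocytes had median depths of 3366.5 to 3855 UMIs there, against 7561 to 9131 in UT, IgG 2, BP 1 and CD40. The part of depth in these shares was not tested. The BP mean was 0.666% ± 0.403 (SD, n = 2), the IgG mean 0.357% ± 0.337 (SD, n = 2), the ratio 1.87 and the two-sided exact permutation p = 0.667.

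**Figure D1:**
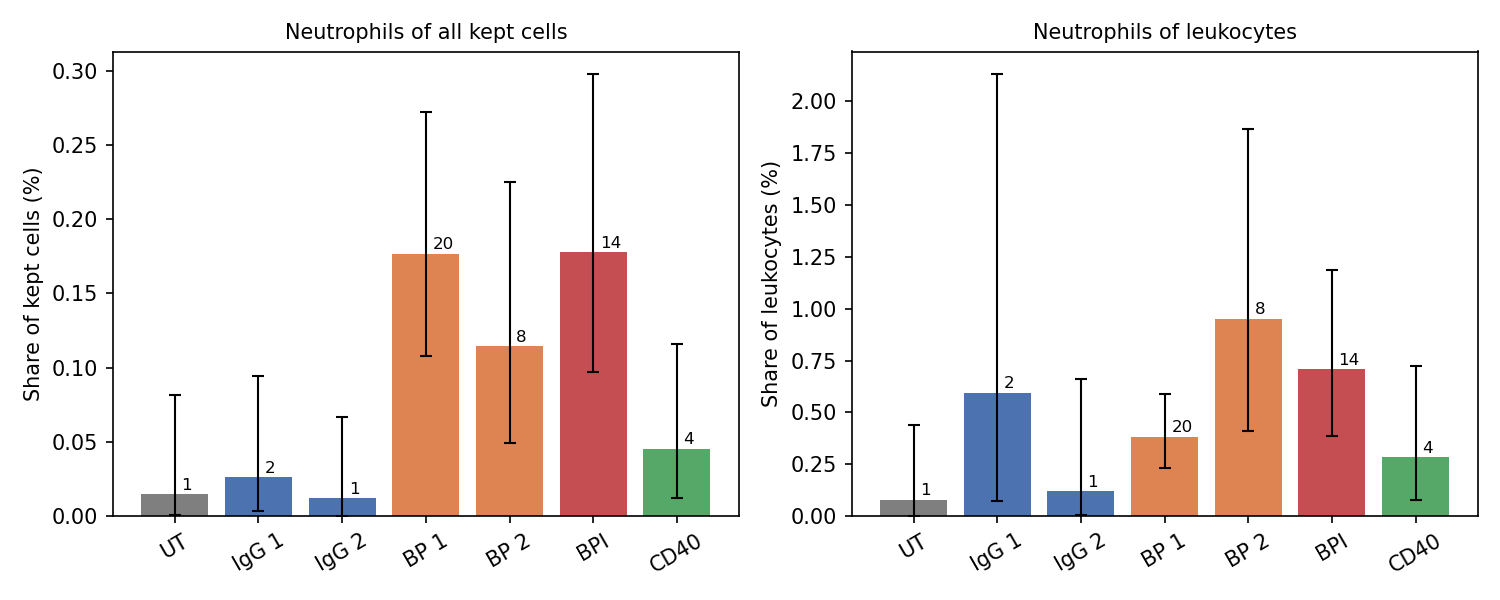
Bars show neutrophils as a percentage of all kept cells (left) and of leukocytes (right) in each of the 7 libraries, with exact 95% binomial intervals for counting error; the number beside each bar is the count of neutrophils. The BP and BPI bars stand above the UT, IgG and CD40 bars on the left, and on the right IgG 1 (0.595%) exceeds BP 1 (0.382%).

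The values at the edges of the rule show which cells it kept and which it left out. Inside, 5 cells had 10 to 19 UMIs of S100a8 and S100a9, 6 had 2 or 3 UMIs of the receptor and Retnlg sum, and 4 had under 1000 UMIs. Outside, 5 cells had 5 to 9 UMIs of S100a8 and S100a9, 8 had 1 UMI of the receptor sum, 6 had none, 1 exceeded the C1q limit, 3 exceeded the mitochondrial limit and 8 held a Cd3 UMI.

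Some of the cells left out had the highest S100a8 and S100a9 counts of all. Outside the rule, 7 cells had at least 100 UMIs of these genes making up at least 5% of their UMIs. Of the 7, 5 were left out for UMIs of Cd3d alone: none had a UMI of Cd3e, Cd3g, Trac or Lck, the other T-cell genes looked up. One such cell in IgG 1 held 1647 S100a8 and S100a9 UMIs among 5412, with 122 of Retnlg, 226 of Camp, 194 of Ngp and 54 of Ltf. One in BP 1 held 2024 among 5829, with 194 of Retnlg, 302 of Camp, 188 of Ngp and 30 of Ltf. Another cell, in BP 2, held 2005 among 4741, with 336 of Camp, 163 of Ngp and 70 of Ltf, and was left out because Csf3r, Cxcr2 and Retnlg were all at 0. Camp, Ngp and Ltf encode specific granule proteins that neutrophil precursors and young neutrophils make. No cell inside the rule had a UMI of Camp. With the limit on Cd3 dropped, an alternative chosen after these cells were seen, the mean share was 0.159% in BP and 0.0316% in IgG, with p = 0.33 again by the exact two-sided permutation test.

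Of the granule genes of young cells, the 48 neutrophils held no azurophil ones and some of the specific granule ones. The 8 genes of azurophil granules and progenitors, among them Mpo and Elane, gave 0 UMIs. Taking 3 counts as the limit that a count of 0 allows, 78915 UMIs leave room for a level of up to 0.380 per 10000 for each. Of 12 genes of specific granules and immature cells, 10 had a UMI, and they made up 0.163% of UMIs. Anxa1, a protein that limits inflammation, gave 68 of those UMIs and Lcn2, an iron-trapping protein of specific granules, 32. In other leukocytes these 12 genes took 0.0791% of UMIs, and in the monocyte gate 0.197%. Olfm4, a granule protein that marks a subset of mouse neutrophils, gave 14 UMIs, 12 of them in the single UT cell. Of 11 cell-cycle genes, 9 had a UMI, and Hmgb2, a chromatin protein also made outside the cycle, gave 70 of their 96 UMIs.

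S100a8 and S100a9, the subunits of the alarmin calprotectin, varied widely from cell to cell. Together they took 0.54% to 22.68% of a cell's UMIs in BP 1 (median 6.43%, 19 cells), 1.44% to 24.82% in BP 2 (median 13.41%, 7 cells) and 2.26% to 31.11% in BPI (median 15.99%, 14 cells). The 4 CD40 cells held 1.91%, 3.14%, 3.21% and 5.81%. The UT cell held 5.90%, the IgG 1 cells 1.93% and 6.25%, and the IgG 2 cell 3.49%. Cells of BP and BPI spanned the whole range, and no cell that the rule kept in the other libraries exceeded 6.25%. This contrast depends on the edges of the rule: the cells left out reached 30.4% in IgG 1 and 7.58% in IgG 2, both with Cd3d UMIs, and 9.88% in CD40, with a receptor sum of 1.

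Retnlg, a resistin-like secreted protein of circulating neutrophils, was patchy. It was at 68.9 UMIs per 10000 in BP 1, 37.3 in BP 2, 153.3 in BPI and 67.2 in the IgG 2 cell. In BP 2, 21 of the 37 UMIs were in 1 cell, and the other cells were at 19.7. It gave 1 UMI in the 4 CD40 cells together and 0 in UT and IgG 1. Within a library it varied with S100a8 and S100a9 across cells: the Spearman correlation of their percentages was 0.635 over 19 cells of BP 1 and 0.744 over 14 cells of BPI. These cells share a library, and both genes belong to the rule. Csf3r was at 30.3 UMIs per 10000 in BP 1, 17.1 in BP 2, 13.7 in BPI and 24.7 in CD40. Cxcr2 was at 18.2, 4.0, 13.2 and 14.3 in the same order, and the CD40 level was 5.69 without the cell that held 8 of its 11 UMIs.

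**Figure D2:**
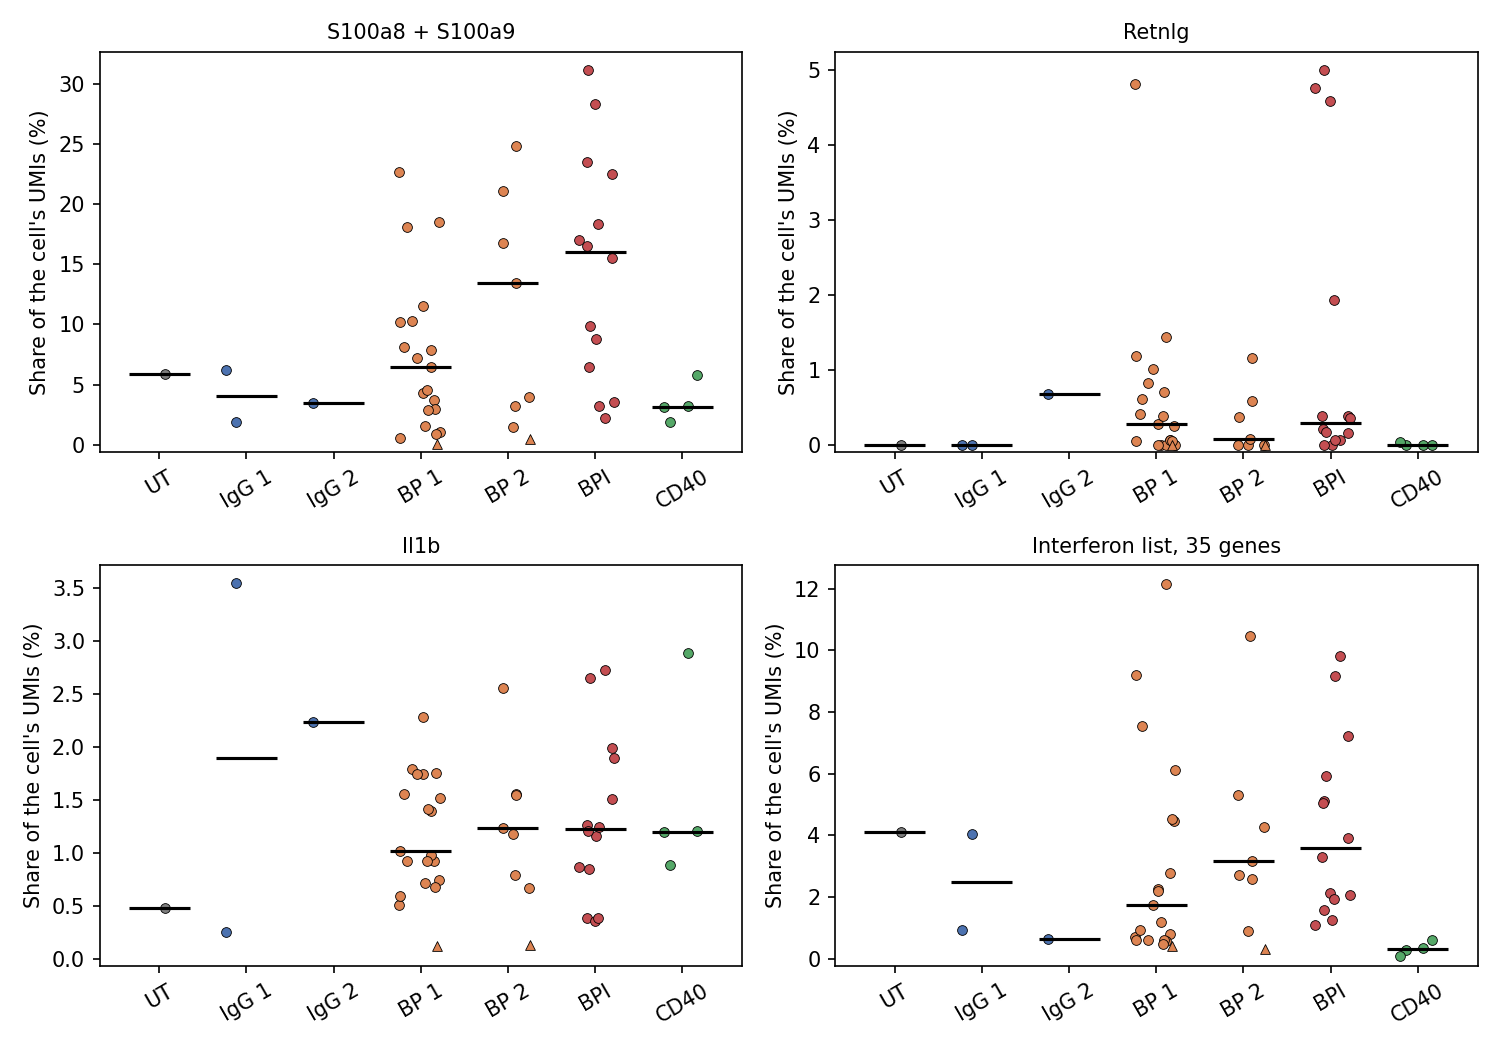
Each point is 1 neutrophil and shows the percentage of its UMIs from S100a8 and S100a9, Retnlg, Il1b or the 35 genes of the interferon list, by library; triangles are the 2 cells over 10000 UMIs and lines are medians over the other cells. S100a8 and S100a9 reached 31.11% in BPI, and the 4 CD40 cells lie at or below 0.60% in the interferon panel.

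In every library but UT, where Cxcl2 gave more UMIs, the cytokine genes were led by Il1b. This cytokine, which drives fever and endothelial activation, was seen in all 48 cells, with 3 to 50 UMIs in each. Its level was 121.7 UMIs per 10000 in BP 1 (110.7 to 133.6), 133.1 in BP 2 (111.4 to 157.9), 131.6 in BPI (115.8 to 149.0) and 144.1 in CD40 (118.6 to 173.6). The 3 cells of IgG 1 and IgG 2 gave 38 and 50 UMIs, or 173.8 and 224.0 per 10000, and the UT cell gave 8, or 48.2. Of the 38 UMIs of IgG 1, 35 were in 1 cell, and the other cell alone was at 25 per 10000. The intervals of BP 1, BP 2, BPI and CD40 overlapped. Of the 7 cells outside the rule described above, the 3 rich in Camp held 0 Il1b UMIs, and the others held 5 to 30. Il1b was at 1.66 in other leukocytes and 6.62 in the monocyte gate. Kept cells without a Ptprc UMI held an Il1b UMI in 0.219% to 5.61% of cases at median depths of 5534 to 17943 UMIs.

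Cxcl2, the Cxcr2 ligand that calls in further neutrophils, was carried by fewer cells. It was seen in 5 of 19 cells of BP 1, 6 of 7 of BP 2, 6 of 14 of BPI and 3 of 4 of CD40, and in 0.466% to 2.67% of kept cells without a Ptprc UMI. Its level was 17.6 UMIs per 10000 in BP 1, 54.5 in BP 2, 28.5 in BPI and 46.7 in CD40, and 63 of the 1660 UMIs of the UT cell were Cxcl2. In BP 1, 54 of the 64 UMIs were in 1 cell, and the other cells were at 2.92. IgG 1 was at 59.4, with all 13 UMIs in 1 cell, and the IgG 2 cell was at 129.9. The BP replicates differed by more than BPI differed from either of them. Il1r2, which soaks up interleukin 1, was at 8.8 in BP 1, 10.1 in BP 2, 13.2 in BPI and 22.1 in CD40. Hdc was at 29.7, 24.2, 23.3 and 49.3 in the same order. In CD40, 21 of the 38 Hdc UMIs were in 1 cell, and the other cells were at 32.2.

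Genes linked to suppression by myeloid cells differed from library to library. Wfdc17, a small secreted protein of activated myeloid cells, was at 27.5 UMIs per 10000 in BP 1 (22.4 to 33.5), 52.5 in BP 2 (39.2 to 68.8), 83.0 in BPI (70.5 to 97.0) and 3.9 in CD40 (0.803 to 11.4). The UT cell held 30 UMIs of it, 1 came from the 2 IgG 1 cells, and the IgG 2 cell had none. Cd274, which encodes PD-L1, the target of the blocking antibody, gave 59 UMIs in BP 1 (16.3 per 10000), 5 in BP 2 (5.0), 29 in BPI (15.3), 2 in CD40 (2.6), 4 in the UT cell and 1 in the IgG cells. BP 2 lay under BP 1 and BPI, but a pair of BP 1 cells held 16 and 14 of the 59 UMIs, and 11 of its 19 cells had a UMI. Over the 48 cells Cd274 was at 12.67, against 3.63 in the monocyte gate. Arg2, a mitochondrial arginase, was at 8.0 in BP 1, 7.1 in BP 2 and 2.6 in BPI. In all, 10 of the 15 genes of this list had a UMI.

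Apart from Cd274, seen in 26 of the 48 cells, the targets of the drugs were sparse in these cells. Pdcd1 (PD-1) and Cd40lg gave 0 UMIs, Cd40 gave 1, Vegfa 3, and the VEGF receptors Kdr and Flt1 gave 1 each. Pik3cd, the PI3K delta catalytic subunit, gave 13 UMIs and Pik3cg, the gamma subunit, gave 3. Their regulators were read more often: Pik3r5, which ties PI3K gamma to G protein signals, gave 18 UMIs, Pik3ap1, an adaptor of PI3K, 39, and Inpp5d, the lipid phosphatase SHIP1, 38. All 12 genes of the PI3K list had a UMI. None of the 12 reached 30 UMIs over BP 1, BP 2 and BPI, the minimum for the comparison of BPI with BP.

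The survival genes Mcl1 and Pim1 were above their level in the monocyte gate. Mcl1, which keeps neutrophils alive, was at 22.3 UMIs per 10000 in BP 1, 23.2 in BP 2, 24.8 in BPI and 18.2 in CD40, against 5.18 in the monocyte gate. Pim1, a survival kinase induced by cytokine receptors, was at 17.6, 30.3, 25.9 and 33.8 in the same order, against 4.54 in the gate. Birc3, an inhibitor of cell death induced by NF-kappa B, was at 16.8 in BP 1, 3.0 in BP 2, 4.8 in BPI and 15.6 in CD40. In CD40, 9 of the 12 Birc3 UMIs were in 1 cell, and the other 3 cells were at 5.69, near BPI. Of the genes of hypoxia and glycolysis, Ldha gave 2 UMIs and Vegfa 3. The list that holds them, with genes of stress and of tumour-associated neutrophils, has 20 genes and made up 0.259% of UMIs.

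Receptors for chemoattractants and cytokines were read at low counts. C5ar1, the receptor for the complement fragment C5a, was at 7.2 UMIs per 10000 in BP 1, 9.1 in BP 2, 14.3 in BPI and 15.6 in CD40. Ccr1, a receptor for CC chemokines, was at 10.2, 7.1, 6.9 and 10.4 in the same order, with 5.51 in CD40 without its highest cell. Ccrl2, which binds chemerin without signalling, was at 6.6, 13.1, 21.1 and 3.9. Il1rap, the shared subunit of interleukin 1 receptors, was at 12.7, 3.0, 4.2 and 22.1, and so was higher in BP 1 and CD40 than in BP 2 and BPI, which carry consecutive library names. Cxcr4, which holds neutrophils in the marrow and rises as they age, gave 14 UMIs in BP 1, 0 in BP 2, 6 in BPI and 10 in CD40. Of 16 receptors listed, 15 had a UMI.

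Class I genes were read far more often than class II genes. H2-D1, a classical class I chain, was at 71.9 UMIs per 10000 in BP 1, 71.6 in BP 2, 62.9 in BPI and 24.7 in CD40, and the UT cell held 26 UMIs of it. B2m, its light chain, was at 50.1, 42.4, 39.7 and 27.3. CD40 had the lowest value of the 4 for both genes. The antigen presentation list that holds both took 0.935% of UMIs in CD40, but less in IgG 1 (0.503%) and IgG 2 (0.627%). Ciita, the activator of class II genes, gave 0 UMIs in the 48 cells, and H2-Ab1, a class II chain, was at 1.1 in BP 1 and 0 in the other libraries. Cd14, a co-receptor for bacterial lipids, was at 21.2, 20.2, 23.8 and 23.4, with 14.7 in CD40 without its highest cell.

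**Figure D3:**
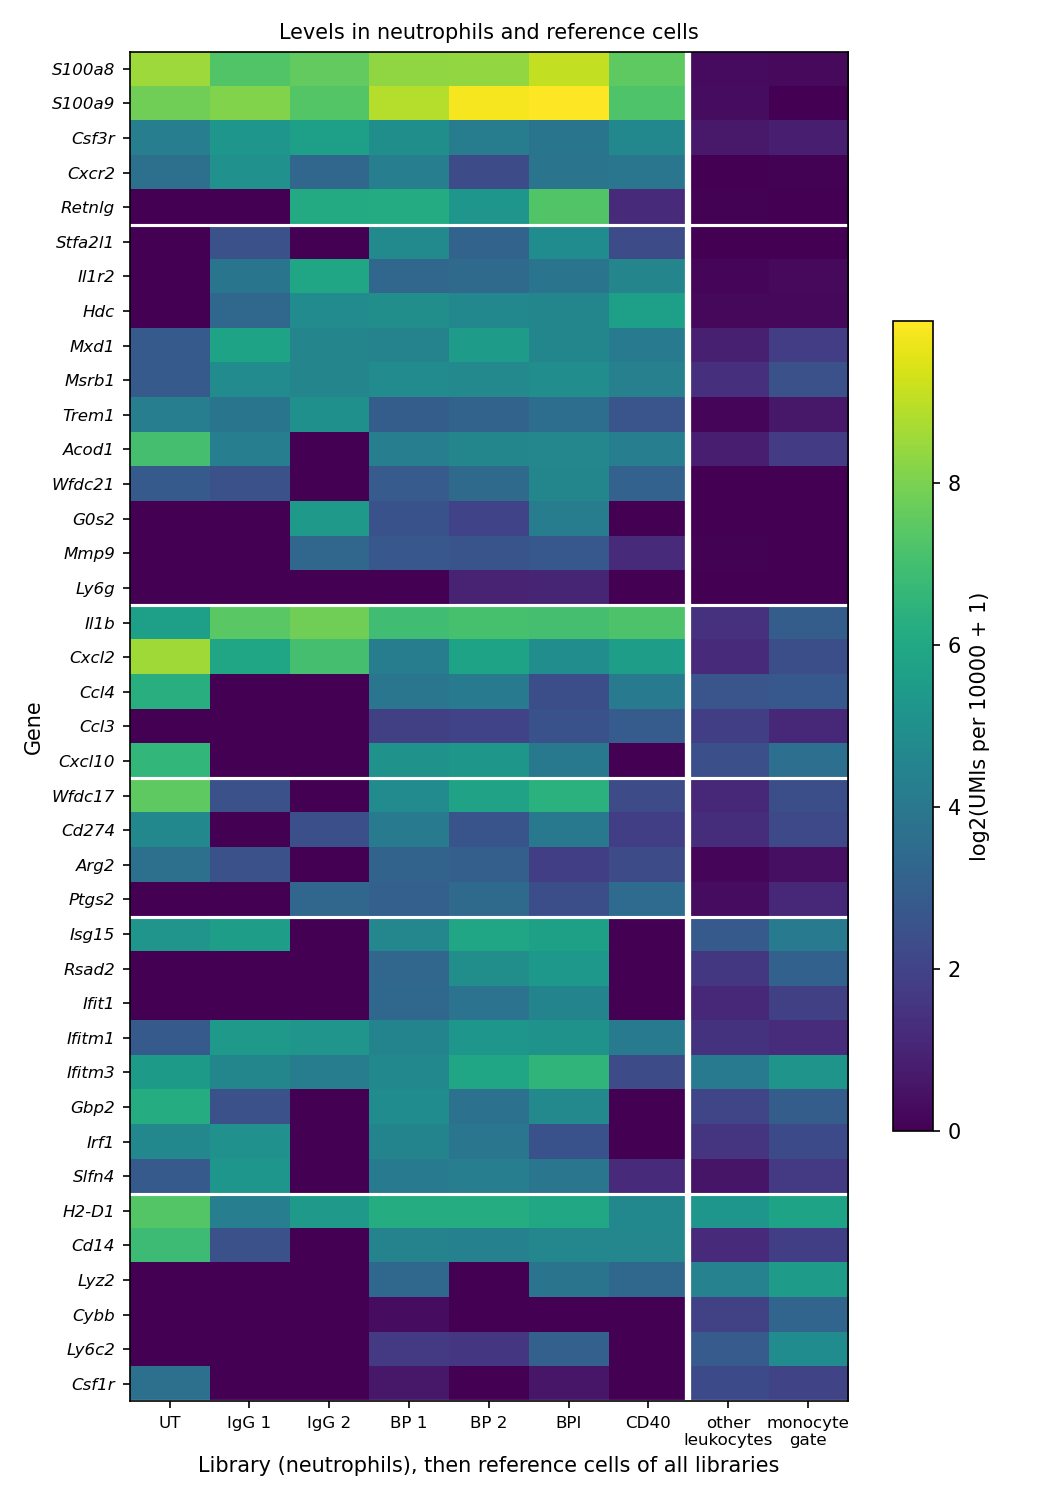
The heat map shows log2(UMIs per 10000 + 1) of selected genes, most of them named in the text, grouped by role, in the neutrophils of each library (1 to 19 cells) and in the other leukocytes and the monocyte gate of all libraries. S100a9 is at 1015.1 UMIs per 10000 in BPI, and Il1b fills its whole row, while Rsad2, Isg15 and Cxcl10 are at 0 in CD40.

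Interferon-response genes took a larger part of neutrophil UMIs in UT, BP and BPI than in IgG 2 and CD40, while the 2 cells of IgG 1 lay far apart. Interferons bind receptors that activate STAT and IRF factors, which bind short repeated motifs before their target genes. The promoters of 3 genes on the list that were at 0 in the CD40 cells (Rsad2, which encodes the antiviral enzyme viperin, Isg15, a ubiquitin-like modifier, and Ifit1, which binds viral RNA) are shown beside that of Ifitm1, a membrane protein that hinders viral entry and that the CD40 cells did express. Each line gives the 250 bases before the gene start in RefSeq (GRCm38.p6), 5′ to 3′ on the gene's strand, and capitals mark every match, on either strand, to the motif searched: GAAA, then 2 bases of any kind, then GAAA again. Overlapping matches run together, as do the 3 of Isg15.
Rsad2, chr12:26456453-26456702, minus strand: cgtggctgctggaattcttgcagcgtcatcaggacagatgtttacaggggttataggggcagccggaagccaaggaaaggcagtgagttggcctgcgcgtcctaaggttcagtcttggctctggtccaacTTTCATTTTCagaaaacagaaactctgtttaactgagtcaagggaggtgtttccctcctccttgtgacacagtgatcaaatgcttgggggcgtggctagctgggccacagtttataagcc
Isg15, chr4:156200819-156201068, minus strand: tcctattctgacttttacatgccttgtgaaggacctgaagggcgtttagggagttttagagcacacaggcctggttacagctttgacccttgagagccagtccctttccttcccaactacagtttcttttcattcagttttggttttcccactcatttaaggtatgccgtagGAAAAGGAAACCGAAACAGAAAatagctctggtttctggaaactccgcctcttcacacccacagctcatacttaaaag
Ifit1, chr19:34640639-34640888, plus strand: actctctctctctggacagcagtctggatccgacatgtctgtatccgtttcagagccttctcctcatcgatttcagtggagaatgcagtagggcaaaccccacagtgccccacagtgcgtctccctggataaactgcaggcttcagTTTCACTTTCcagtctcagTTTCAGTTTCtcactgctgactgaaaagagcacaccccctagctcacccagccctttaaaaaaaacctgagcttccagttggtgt
Ifitm1, chr7:140967826-140968075, plus strand: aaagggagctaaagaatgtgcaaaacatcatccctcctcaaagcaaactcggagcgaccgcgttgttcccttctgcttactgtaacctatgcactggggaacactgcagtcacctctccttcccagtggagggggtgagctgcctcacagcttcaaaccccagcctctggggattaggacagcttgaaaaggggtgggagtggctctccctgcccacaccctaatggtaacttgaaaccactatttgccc

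The motif occurs once before Rsad2, 3 times before Isg15 and 2 times before Ifit1, and has 0 matches before Ifitm1. GENCODE places Ifitm1 at 140967221 to 140969825, so the window shown for it lies inside the gene by that source. Its 0 matches hold for the RefSeq start only, and bases before the GENCODE start were not searched. Of the 35 genes of the list, 29 had a promoter entry, and 14 of the 29 held a match. Among all 32851 promoters of the table, 2.98% held one. The 3 genes at 0 in CD40 shown here were picked with a match. Of 24 list genes with an entry that had no UMI in the CD40 cells, 14 held a match and 10 did not, such as Irf7 and Ifit2. Of the 5 with a UMI there, 0 held one. The split rests on 4 CD40 cells with 7701 UMIs, in which 2399 of all genes had a UMI. Zeros were not particular to CD40: in the IgG 2 cell 4 of the 35 list genes had a UMI, and Isg15 and Rsad2 were at 0. A match describes letters in this window and does not show a bound factor.

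Summed over the 35 genes, the interferon list took 3.01% of neutrophil UMIs in BP 1 (2.83 to 3.19), 4.06% in BP 2 (3.68 to 4.48) and 4.37% in BPI (4.07 to 4.68). It took 4.10% in the UT cell (3.18 to 5.19) and 2.33% in the 2 IgG 1 cells (1.74 to 3.07). It took 0.627% in the IgG 2 cell (0.343 to 1.05) and 0.286% in the 4 CD40 cells (0.179 to 0.433). The CD40 cells and the IgG 2 cell were low, and UT, BP 1, BP 2 and BPI were at 3.01% or above. In IgG 1, 1 cell held 40 of the 51 UMIs and was at 4.05%, and the other was at 0.917%, near the IgG 2 cell. Of the 35 genes, 35 had a UMI in BP 1, 34 in BP 2, 34 in BPI, and 5 in CD40. Depth differed between these libraries, with 36306, 9914, 18915 and 7701 UMIs in the same order, and so did the number of all genes with a UMI, at 5375, 2554, 3323 and 2399. The 4 CD40 cells held 22 interferon UMIs among 7701, of which 13 were Ifitm1, 4 Slfn1 and 3 Ifitm3. Single cells ranged from 0.49% to 12.16% in BP 1 (median 1.75%), 0.90% to 10.46% in BP 2 (median 3.17%) and 1.08% to 9.83% in BPI (median 3.60%), against 0.08% to 0.60% in CD40, so 2 of the 19 cells of BP 1, and 0 cells of BP 2 or BPI, lay at or below the highest CD40 cell. With the 2 deep cells, BP 1 was at 2.27% and BP 2 at 2.00%.

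Among single genes, Isg15 was at 23.4 UMIs per 10000 in BP 1, 59.5 in BP 2 and 49.7 in BPI, with 6 UMIs in the UT cell, 10 in the IgG 1 cells (9 of them in 1 cell) and 0 in the IgG 2 and CD40 cells. Rsad2 was at 8.8 in BP 1, 29.3 in BP 2 and 39.7 in BPI, and gave 0 UMIs in each of the other 4 libraries. A count of 0, by the same limit of 3 counts, allows up to 3.90 UMIs per 10000 in CD40, 13.4 in IgG 2, 13.7 in IgG 1 and 18.1 in UT. Cxcl10, an interferon-induced chemokine for T cells, was at 33.1 in BP 1, 38.3 in BP 2 and 15.3 in BPI, with 16 UMIs in the UT cell and 0 in the IgG and CD40 cells. In BP 2, 36 of its 38 UMIs were in 1 cell. Ifitm1 ran across all libraries, at 21.8 in BP 1, 37.3 in BP 2, 34.4 in BPI and 16.9 in CD40, where it was at 9.67 without the cell that held 7 of the 13 UMIs.

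The 2 lowest libraries were the same outside the neutrophils. In the other leukocytes the list took 2.19% of UMIs in UT, 0.592% in IgG 1, 0.149% in IgG 2, 1.06% in BP 1, 1.01% in BP 2, 1.58% in BPI and 0.163% in CD40. In free RNA, from barcodes of 10 to 100 UMIs, it took 1.81%, 0.383%, 0.150%, 0.998%, 0.466%, 0.904% and 0.145% in the same order. In the monocyte gate it took 3.31%, 1.66%, 0.383%, 1.498%, 1.90%, 2.53% and 0.447%. CD40 and IgG 2 were the lowest libraries in every one of these. They carry consecutive library names, and IgG 1, BP 2 and BPI form another such run, so treatment and library set cannot be told apart for CD40. In free RNA the list was below its neutrophil level in each library, and the part of free RNA in the neutrophil values was not tested.

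**Figure D4:**
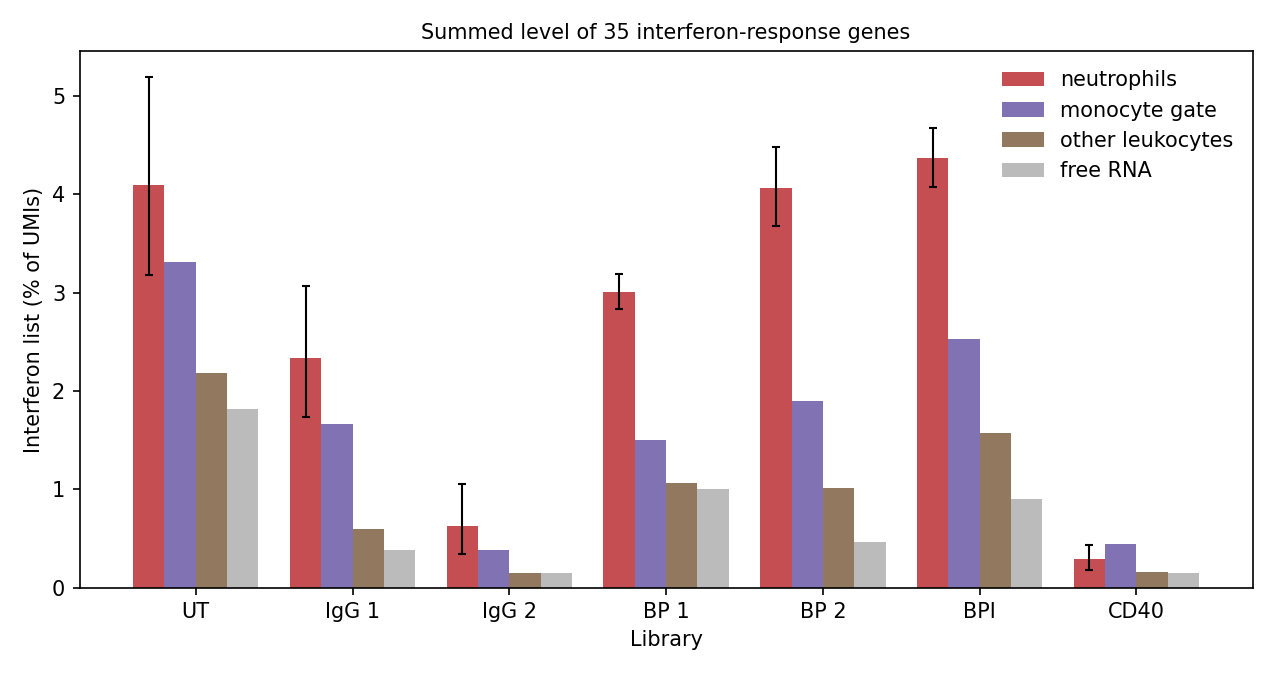
Bars show the 35 interferon genes as a percentage of UMIs in neutrophils (with exact 95% Poisson intervals for counting error), in the monocyte gate, in other leukocytes and in free RNA, by library. Neutrophil bars range from 0.286% in CD40 to 4.37% in BPI, and the lowest bars of each kind of cell are those of IgG 2 and CD40.

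Across cells of a library, interferon genes and Retnlg ran in opposite directions. The Spearman correlation of their percentages was -0.632 over 19 cells of BP 1 and -0.513 over 14 cells of BPI. Against S100a8 and S100a9 it was -0.218 and -0.525. Points of a correlation are cells of 1 library and share its depth, and percentages of the same total push each other down, so these values are a description.

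Adding the PI3K inhibitor was compared as BPI against each BP library, over 374 genes with at least 30 UMIs in the 3 libraries and without the rule genes. With 1 BPI library there is no replicate check, and a 2-fold difference from both BP libraries was the mark used, with counts under 3 set to 3. BPI was at least 2-fold above both for 11 genes, or 2.94%, and at least 2-fold below both for 29 genes, or 7.75%. The BP replicates themselves differed by at least 2-fold for 34.5% of the genes. Of the 40 genes past the mark, 7 had counting intervals in BPI apart from those of both BP libraries, 5 above and 2 below. The rule genes took 17.3% of neutrophil UMIs in BPI, 9.06% in BP 1 and 13.1% in BP 2, which lowers the level of every other gene. With rule genes left out of the totals, 12 genes were above and 24 below. With the 2 deep cells, 37 were above and 30 below.

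Few cells carried these counts, and the counting intervals treat UMIs of 1 cell as independent. When each of the 40 neutrophils of BP 1, BP 2 and BPI was left out in turn, an alternative added after the values were seen, only G0s2 kept its intervals apart every time, and Hp and Lcn2 kept the 2-fold mark.

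G0s2, which holds back fat breakdown, gave 17 UMIs in BP 1, 3 in BP 2 and 34 in BPI, or 4.7, 3.0 and 18.0 UMIs per 10000, and was seen in 8 of the 14 BPI cells. Hp, haptoglobin, which neutrophils store in granules and which binds free haemoglobin, was at 8.0, 7.1 and 22.7, and was seen in 13 BPI cells. Lcn2 gave 5 UMIs in BP 1, 2 in BP 2 and 25 in BPI, 13 of the 25 in 1 cell. Prdx5, a peroxide-removing enzyme, was at 5.5, 11.1 and 26.96. Without the BPI cell that held 17 of its 51 UMIs, BPI was at 19.7 and no longer 2-fold above BP 2. Cstdc5, a stefin in a family of near-identical copies whose reads could be shared, was at 6.6, 0.0 and 14.8. It fell short of the mark without the BPI cell that held 14 of its 28 UMIs, and 21 of the 24 UMIs of BP 1 were in 1 cell.

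The 2 genes below, Ccl4 and Cxcl10, each lost the mark when 1 BP cell was left out. Ccl4, a chemokine which attracts T cells and monocytes, was at 14.0, 16.1 and 4.2. All 16 UMIs of BP 2 were in 1 cell, as were all 8 of BPI and 30 of the 51 of BP 1. Cxcl10 was at 33.1, 38.3 and 15.3, with 23 of the 29 BPI UMIs in 1 cell. Without its highest cell BP 2 was at 2.31, below BPI, and BP 1 at 19.9.

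By list, 3 of 19 neutrophil genes beyond the rule that were compared lay past the mark above and 0 below, against 2.94% and 7.75% of all genes compared, with median log2 differences of 0.46 from BP 1 and 0.30 from BP 2. Over all 374 genes these medians were -0.21 and -0.02. Of 7 chemokines and cytokines compared, 0 lay above and 2 (Ccl4 and Cxcl10) below, against the same 2.94% and 7.75%, with medians of -1.38 and -0.93. Of 21 interferon genes, 0 lay above and 2 below (Cxcl10 and Irf1), with medians of -0.06 and -0.22, and this count below is near the 7.75% of all genes. These lists were chosen with earlier results of these data known, and the medians are a description of 3 libraries.

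**Figure D5:**
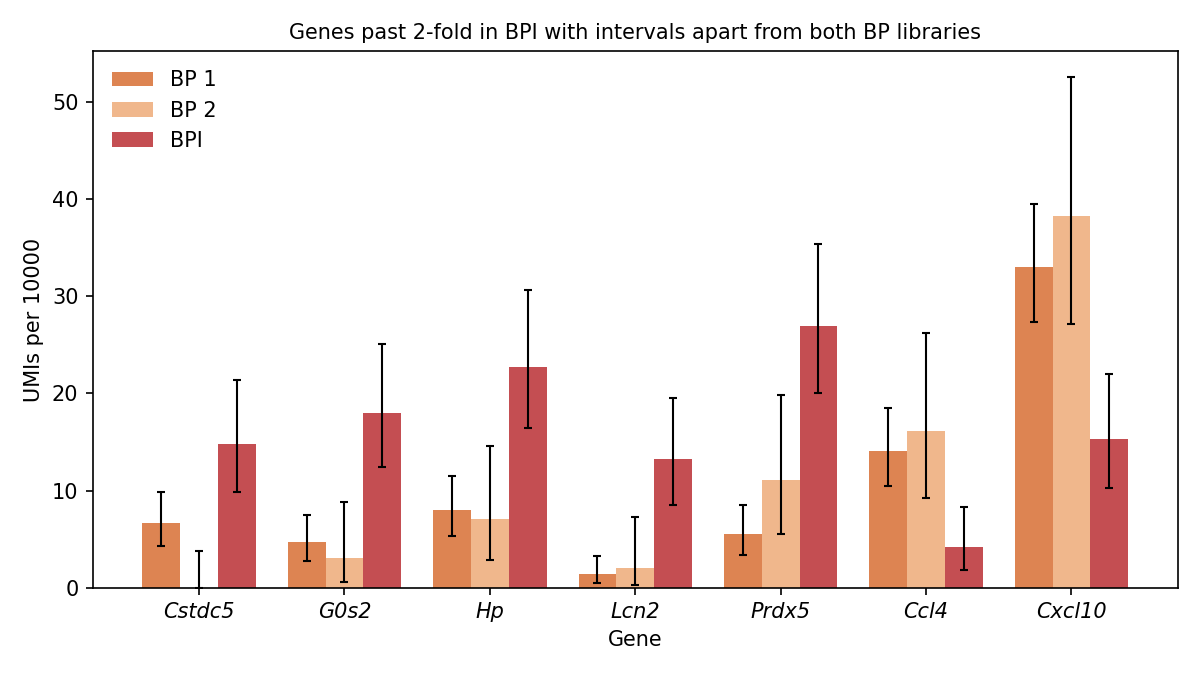
Bars show the level, in UMIs per 10000, of the 7 genes, among the 40 past the 2-fold mark, whose counting interval in BPI lies apart from those of both BP libraries, with exact 95% Poisson intervals, over 19, 7 and 14 cells. Lcn2, G0s2, Hp, Prdx5 and Cstdc5 are higher in BPI, and Ccl4 and Cxcl10 are lower; of the 7, G0s2 alone kept its intervals apart with any 1 cell left out.

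Some of the highest counts in these cells came from RNA with no known tie to neutrophils. Gm42418, a locus that overlaps ribosomal RNA, was at 40.5 UMIs per 10000 in BP 1, 327.8 in BP 2, 260.1 in BPI, 361.0 in CD40, 553.3 in IgG 1, 156.8 in IgG 2 and 0.0 in UT. In other leukocytes of all libraries it was at 110.96, with a range over libraries from 1.09 in UT to 395.6 in BPI. Among the genes with the highest mean level over libraries, Srgn, a proteoglycan of granules, had a mean of 144.06 UMIs per 10000, Fth1, the ferritin heavy chain, 121.11, and Tyrobp, an adaptor of myeloid receptors, 56.47.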

How the data were processed

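Single-cell RNA was measured in 7 libraries of pooled NSCG tumours. The deposited matrices hold raw UMI counts. Cell Ranger 7.0.1 and mm10 are named in the submitters' processing notes, while the file headers name Cell Ranger 4. The deposited counts were unfiltered over barcodes (713553 to 2310016 barcodes listed per library), and the UT library uses another barcode list. Whether intronic reads were counted is not given in the sources used here.

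Barcodes were filtered and neutrophils selected with the thresholds of the report, in Python 3.11.15 with scipy 1.17.1. Scrublet ran in scanpy 1.11.5 and marked 0.8% of cells per 1000 cells; its marks removed no cell from the main values. Library shares were compared with exact permutation tests. Positions come from GENCODE on GRCm38. The members and lists were chosen with earlier results of these data known. Named genes are those of the lists, the 20 with the highest mean level and the 20 with the highest ratio to other cells, and any others were named after their values were seen. Tests of single genes were planned for libraries with at least 10 neutrophils; only 2 libraries, BP 1 and BPI, reached that, in different groups, so no gene was tested between groups. The fold calls were tested on simulated data with counting error only. Those data held no differences between BP replicates or between cells, so they do not show how the calls fare with such differences. The replicate numbers of IgG and BP come from titles, and nothing in the labels ties same-numbered libraries to the same mice or day.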

Additional observations from a re-analysis of the deposited data

How the results depend on the processing

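The BP excess in neutrophil share kept its direction under every alternative run. The difference was 0.126 percentage points, and leaving out each IgG or BP library in turn gave 0.0952 to 0.157. Stricter or looser limits on UMIs, mitochondrial UMIs, S100a8 and S100a9, receptors and C1q, and removal of doublets, gave 0.112 to 0.147, all with both BP libraries above both IgG libraries. Some of these could move little: the highest mitochondrial share of a neutrophil was 3.08%, Scrublet marked none, and 1 neutrophil held a C1q UMI. With a replicate block, which pairs IgG and BP libraries of the same number, the mean difference was again 0.126 (0.150 and 0.102), and the exact sign-flip permutation p was 0.5, the smallest that 2 pairs allow. Counted among leukocytes, the difference was 0.309 points with overlapping groups. The replicate numbers are shared labels, not known pairs.

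Of 84 levels, 20 moved beyond their counting interval with the 2 deep cells included, 11 with at least 20 UMIs of S100a8 and S100a9 (which leaves 1 IgG 1 cell, with Il1b at 25 in place of 173.8 and the interferon list at 91.7 in place of 233.2 per 10000), and 8 with rule genes left out of the totals. The deep cells lie in BP 1 and BP 2 only, so no level of another library could move with them. Most levels of BP 1 and BP 2 did move. The limit of 20 UMIs removed cells from IgG 1, BP 1 and BP 2 only. Of 133 shares of cells with a UMI, 5 moved when cells were thinned to 500 UMIs. With the deep cells, 37 genes were at least 2-fold above both BP libraries in BPI in place of 11. With any 1 of the 40 cells left out, 1 of the 5 genes above and 0 of the 2 below kept their counting intervals apart. The alternatives for tests of single genes were not run, since those tests were not made. Depth limits all levels: UT, IgG 1 and IgG 2 rest on 1660, 2187 and 2232 UMIs. The choices on deep cells, single cells and Cd3 were made after the data were seen.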
